A study of Mus musculus with 10 samples.

Results

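Semaphorins, plexins, neuropilins, Slits, Robos, netrin-1 and the netrin receptors steer growing axons, and 36 of their genes were followed in the mouse hippocampus after an axonal lesion. The members were named genes, and all 36 were measured, by 89 probe sets whose annotation gave 1 of them as the only symbol. They were 36 of the 18193 genes and 89 of the 45037 probe sets on the array. Where a gene had several probe sets, the brightest, by its mean over all 10 mice, stands for it, and the others are given beside it. The series compared 5 adult female SJL/J mice with an axonal lesion alone (AxL) with 5 that were given T cells specific for proteolipid protein by adoptive transfer and then the same lesion (TPlp+AxL). Whole hippocampi were taken at 2 days after the lesion, and each mouse gave 1 array. Every mouse therefore carried the lesion, so the data compare lesioned mice with and without the T cells and do not show what the lesion did. No group had the T cells without a lesion, or T cells of another specificity. An effect on the lesion response therefore cannot be told apart from an effect of the transfer itself. Proteolipid protein is a major protein of central myelin. The labels do not name the lesioned pathway.

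Semaphorins are secreted or membrane-bound proteins that mostly repel axons. They act through plexin receptors, and most class 3 semaphorins also need a neuropilin as the binding partner. Slits repel axons through Robo receptors. Netrin-1 attracts axons through Dcc and repels them through Unc5 receptors. In the hippocampus Sema3f with Nrp2, and class 6 semaphorins with A plexins, are known to shape mossy fibre pathways and dendrites of granule cells. Several members also work outside neurons, such as Sema4a, Sema4d and Sema7a in immune cells and Sema3e with Plxnd1 in blood vessels. The collapsin response mediators, to which Dpysl3 of the series title belongs, pass on semaphorin signals in the growth cone.

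None of the 36 genes passed the test when TPlp+AxL was compared with AxL, and Sema6d, the nearest, passed under some of the alternative settings given below. A gene was called only at an adjusted p under 0.05 in limma, a linear model fitted to all 45037 probe sets with Benjamini-Hochberg adjustment over all of them. That rule called 1.26% of all 18193 genes (0.978% higher and 0.28% lower) and 0 of the 36 guidance genes. It called 0.835% of all probe sets (0.646% higher and 0.189% lower) and 0 of the 89 of the guidance genes. With so small a background share, a count of 0 among 36 does not set these genes apart. An unadjusted limma p under 0.05 was reached by 8 guidance genes, or 22.2%, against 17.9% of all genes. All 8 were lower in TPlp+AxL, where 12.1% of all genes were lower at that p and 5.76% were higher. Those shares are over genes of all signal levels, and the change drifted down with level over all genes, as given below. Of the 89 probe sets, 17 (19.1%) reached that p, beside 14.3% of all probe sets. Of the 17, 16 were lower and 1 was higher, where 7.79% of all probe sets were lower at that p and 6.54% were higher.

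The changes were small. The log2 change is the TPlp+AxL mean less the AxL mean, so that a negative value is a lower level with T cells. It ran from -0.25 for Sema6d to 0.13 for Sema4a. Its median over the 36 genes was -0.05, beside -0.03 over all genes, and 26 of the 36 (72.2%) lay below 0, beside 62.7% of all genes. Of the 89 probe sets 58 lay below 0, beside 51.7% of all probe sets. The 95% interval of the change stayed within 0.5 either way on the log2 scale, a 1.41-fold difference, in all 36 genes. Its lowest bound was -0.38, for Sema3c, and its highest was 0.48, for Sema5a. A missed threshold does not show that a gene was unaffected, and the intervals give the sizes that 5 mice a group leave possible.

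**Figure D1:**
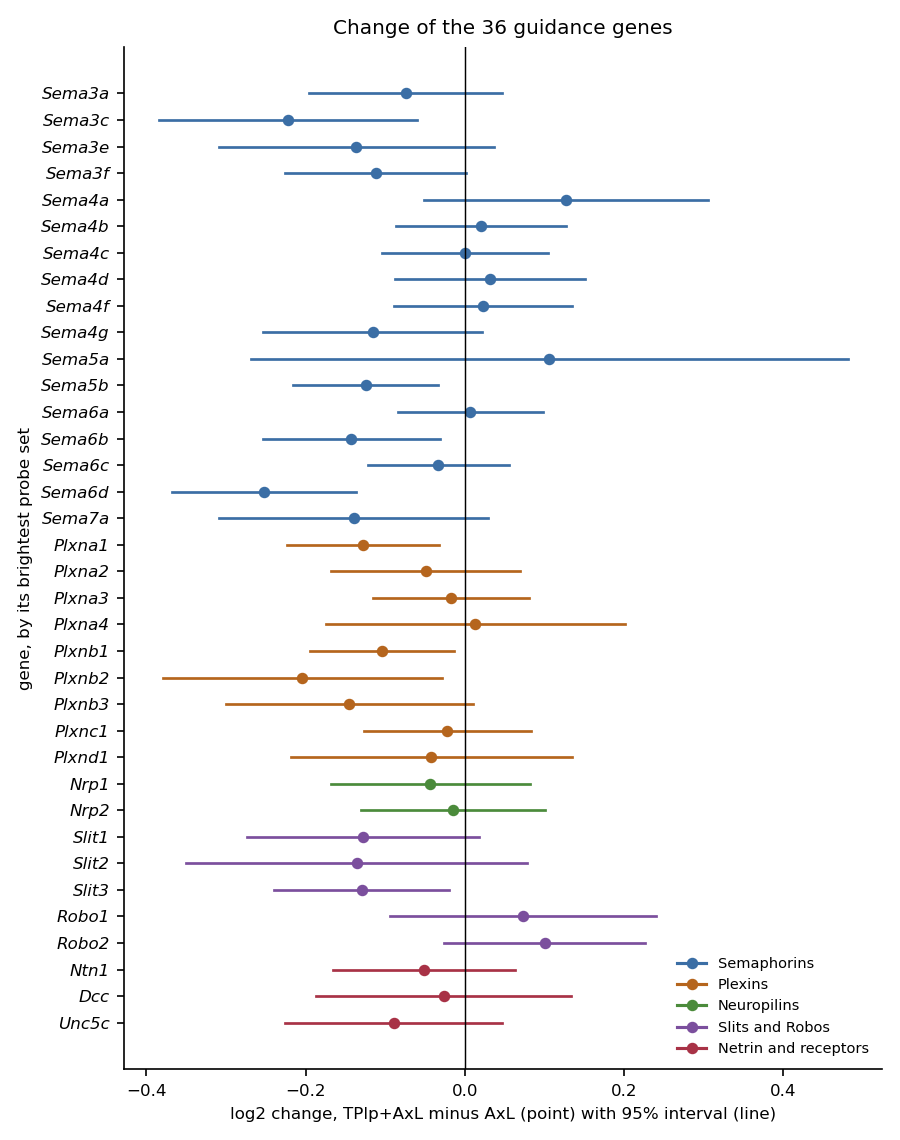
Log2 change (TPlp+AxL minus AxL, horizontal axis) of each of the 36 guidance genes (vertical axis, by the brightest probe set), with points for the change and lines for the 95% interval from limma. All 36 intervals lie between -0.38 and 0.48, and Sema6d at -0.25 has the lowest point.

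The mean level of hippocampal markers overlapped between the groups, and 3 arrays stood apart in another tissue's markers. The mean log2 level of 11 hippocampal subfield genes was 9.77 to 10.03 in AxL and 9.71 to 9.89 in TPlp+AxL. These ranges are not small beside the changes of the guidance genes. Of the 11 genes, 8 had changes below 0, beside 62.7% of all genes, with a median of -0.11 and 0 called. The mean level of 10 choroid plexus genes was 10.17 in AxL 3, 9.35 in AxL 5 and 9.45 in TPlp+AxL 1, and 8.16 to 8.28 in the other 7 arrays. Markers of 2 kinds of blood cell were higher with the T cells. The mean level of 7 T cell genes was 7.27 to 7.35 in AxL and 7.71 to 8.10 in TPlp+AxL, with 3 genes higher after adjustment, and that of 9 genes of infiltrating monocytes and macrophages was 8.60 to 8.97 and 9.45 to 9.75, with 5 higher. In whole tissue, fewer cells of a type and less RNA per cell cannot be told apart.

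Sema6d, a transmembrane semaphorin that binds Plxna1, was the guidance gene nearest to the threshold. Its log2 values were 11.18, 11.13, 11.40, 11.26 and 11.21 in AxL 1 to 5. In TPlp+AxL 1 to 5 they were 11.03, 10.91, 11.06, 10.98 and 10.94. The groups did not overlap, and the highest mouse of all was AxL 3. The means were 11.24 ± 0.10 (SD, n = 5) and 10.98 ± 0.07 (SD, n = 5), a 1.19-fold lower level in TPlp+AxL. The log2 change was -0.25 (SE 0.05, 95% interval -0.37 to -0.14), and it did not pass (limma adjusted p = 0.0556). The exact two-sided permutation test gave p = 0.00794, the smallest that 5 against 5 mice allow. Groups that do not overlap always give this p, so it adds nothing to the lack of overlap. It is not adjusted for the number of genes, and the groups did not overlap in 4.55% of all genes.

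The side of the threshold on which Sema6d fell depended on the settings. It passed with AxL 2 left out (limma adjusted p = 0.0404), with array weights (0.0414), with each array's median subtracted (0.0352) and with the adjustment over 1 probe set per gene (0.0417). After cyclic loess normalization, which removes a drift of the change with signal level, the change was -0.15 (limma adjusted p = 0.195), and repeated quantile normalization also gave -0.15 (0.193). Without the 3 arrays with raised choroid plexus markers the change was -0.22 (limma adjusted p = 0.312), in a fit in which 1 probe set of all 45037 passed. The 3 dimmer probe sets of Sema6d did not share the direction. They had mean levels of 8.18, 7.81 and 7.12 and changes of 0.03, 0.08 and 0.08, none of them past the threshold.

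**Figure D2:**
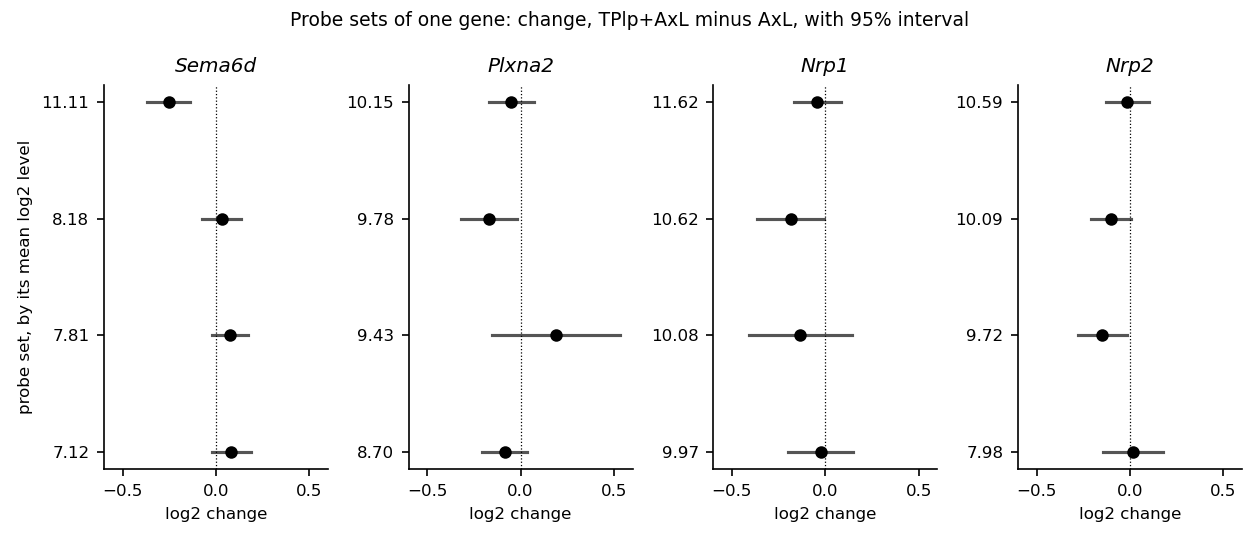
Log2 change (TPlp+AxL minus AxL, horizontal axis) with 95% interval for the 4 probe sets each of Sema6d, Plxna2, Nrp1 and Nrp2, labelled on the vertical axis by their mean log2 level over the 10 arrays. The brightest probe set of Sema6d lies at -0.25 and its other 3 lie between 0.03 and 0.08.

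Among class 6 semaphorins, membrane proteins that bind A plexins, Sema6b was also lower at an unadjusted p under 0.05. Its log2 values were 8.94, 8.90, 8.99, 9.09 and 9.06 in AxL 1 to 5 and 8.74, 8.81, 8.87, 8.89 and 8.96 in TPlp+AxL 1 to 5. The groups overlapped only through TPlp+AxL 5, which lay above AxL 1 and AxL 2. The log2 change was -0.14 (SE 0.05, limma adjusted p = 0.247). Sema6a, the ligand of Plxna2 and Plxna4, had a change of 0.0071 (95% interval -0.08 to 0.10), and its other 2 probe sets both had -0.02. Sema6c had -0.03 (95% interval -0.12 to 0.06), with 0.02 in its dimmest probe set.

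The 4 secreted class 3 semaphorins all had changes below 0, also after each of the 3 other scalings, and none passed. Sema3c, which guides cortical axons and neural crest cells, had the second lowest change of the 36 genes. Its log2 values were 9.25, 9.13, 9.47, 9.18 and 9.48 in AxL 1 to 5 and 9.12, 8.94, 9.15, 9.11 and 9.08 in TPlp+AxL 1 to 5. The highest 2 mice, AxL 3 and AxL 5, were among the 3 with raised choroid plexus markers. TPlp+AxL 1, the third of them, lay below every AxL mouse and was the second highest of its group. The log2 change of -0.22 (SE 0.07, limma adjusted p = 0.215) was -0.12 without those 3 arrays (limma adjusted p = 0.503), and the part of choroid plexus tissue in it was not otherwise tested. A second, dim Sema3c probe set had -0.0063.

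Sema3e, the ligand of Plxnd1, had a change of -0.14 (95% interval -0.31 to 0.04). Sema3f, the ligand of Nrp2, had -0.11 (95% interval -0.23 to 0.0020). Sema3a, the founding repellent of the family and a ligand of Nrp1, had -0.07 (95% interval -0.20 to 0.05). The brightest 2 probe sets of Sema3e agreed in sign (-0.14 and -0.09) and its dimmer 2 did not (0.05 and 0.08). A second Sema3a probe set had 0.05. Of their receptors, Nrp1 had a change of -0.04 (95% interval -0.17 to 0.08), Nrp2 of -0.015 (95% interval -0.13 to 0.10) and Plxnd1 of -0.04 (95% interval -0.22 to 0.13).

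The neuropilins show how far probe sets of 1 gene can differ. The other probe sets of Nrp1 had changes of -0.19, -0.13 and -0.02, and those of Nrp2 had -0.10, -0.15 and 0.02. Both genes had a positive change by their brightest probe set after cyclic loess normalization (0.07 for Nrp1 and 0.07 for Nrp2). Across the 29 guidance genes with more than 1 probe set, 19 had probe sets on both sides of 0.

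Class 4 semaphorins, membrane proteins with roles in immune cells as well as axons, were the class with most changes above 0 (5 of 6), in the deposited values and after quantile or cyclic loess normalization. With each array's median subtracted, 2 of 6 were above 0. By the mean of all probe sets of a gene, Sema4d (-0.03) and Sema4f (-0.04) lay below 0. Sema4a, which acts in T cell priming, had the highest change of the 36 genes. Its log2 values ran from 9.12 through a median of 9.18 to 9.59 in AxL and from 9.33 through 9.39 to 9.48 in TPlp+AxL. All 5 TPlp+AxL mice lay above the AxL mean of 9.27, while AxL 4 was the highest of the 10. The log2 change was 0.13 (95% interval -0.05 to 0.31, limma adjusted p = 0.486). It was 0.21 without AxL 4, 0.05 without the 3 choroid plexus arrays, and -0.03 in the second probe set. The T cell and monocyte markers given above were higher in the same mice, and the part of those cells in the class 4 values was not tested.

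Sema4d, which is made by T cells and oligodendrocytes and binds Plxnb1, had a change of 0.03 (95% interval -0.09 to 0.15). Its other probe sets had -0.16 and 0.05. Sema4b had 0.02 in its brightest probe set and 0.11 in its other (limma adjusted p = 0.262), the 1 guidance probe set that was higher at an unadjusted p under 0.05. Sema4f had 0.02, and -0.10 in its other probe set. Sema4c, a ligand of Plxnb2, had 0.00028 (95% interval -0.10 to 0.11), and Sema4g had -0.12 (95% interval -0.25 to 0.02). The class 7 semaphorin Sema7a, a lipid-anchored protein that binds Plxnc1 and integrins, had -0.14 (95% interval -0.31 to 0.03), and -0.06 in its other probe set.

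The class 5 semaphorins, transmembrane proteins that constrain retinal neurites, had very different spreads between mice. Sema5b was the only gene beside Sema6d whose groups did not overlap. Its log2 values were 7.82, 7.79, 7.79, 7.91 and 7.96 in AxL 1 to 5 and 7.74, 7.68, 7.78, 7.71 and 7.73 in TPlp+AxL 1 to 5. Non-overlapping groups were thus seen in 2 of 36 guidance genes (5.56%), against 4.55% of all genes, and both were lower in TPlp+AxL, as were 2.35% of all genes. The Sema5b change was -0.12 (SE 0.04, limma adjusted p = 0.216), and TPlp+AxL 3 lay just below the lowest AxL mice. Its exact permutation p of 0.00794, as for Sema6d, only restates the lack of overlap and is not adjusted. The other Sema5b probe set had -0.06.

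Sema5a had the widest spread of the 36 genes, with an SD of 0.35 in AxL and 0.28 in TPlp+AxL. Its log2 values ran from 9.44 (AxL 2) to 10.37 (AxL 1) without T cells and from 9.65 to 10.39 (TPlp+AxL 4) with them. The range within each group was far larger than the change between them, 0.11 (95% interval -0.27 to 0.48). The change was 0.24 without AxL 1 and -0.0065 without TPlp+AxL 4. Its other probe sets had -0.17, 0.07 and -0.04.

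**Figure D3:**
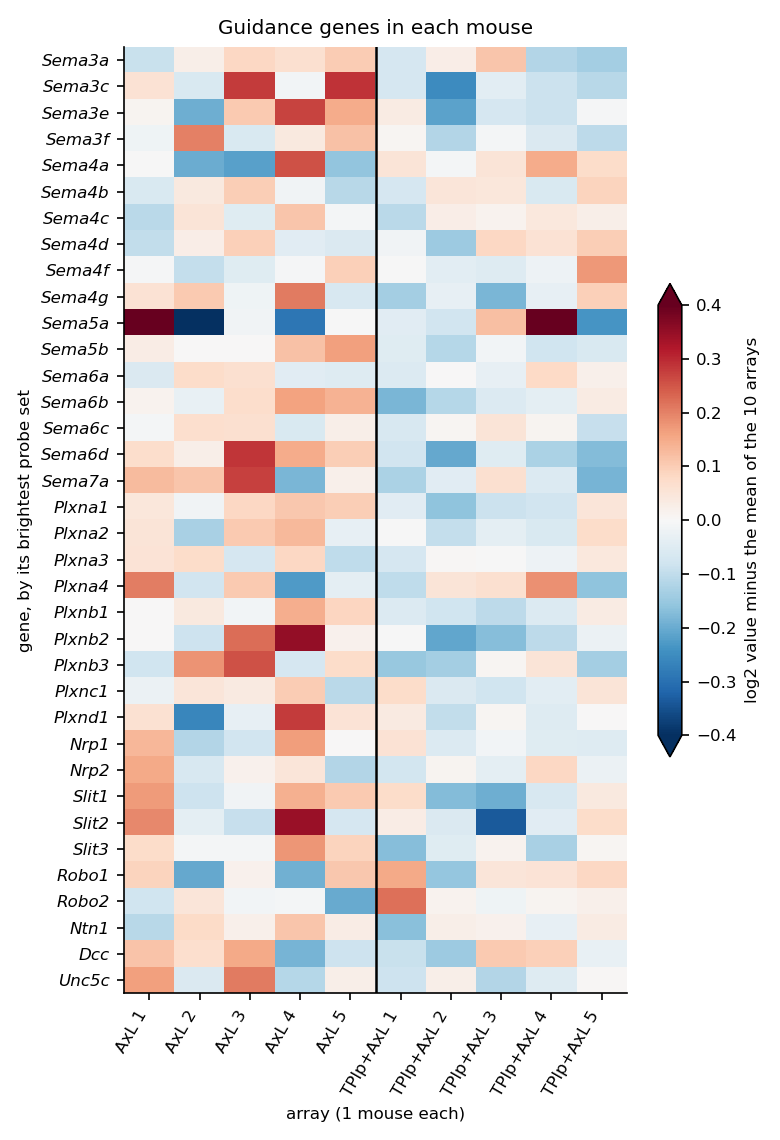
Log2 value of each of the 36 guidance genes (rows, by the brightest probe set) in each of the 10 mice (columns), minus the gene's mean over the 10 arrays; the colour scale ends at 0.4 either way. AxL 4 holds the highest value of its group in 16 genes, AxL 2 the lowest in 13, and Sema5a has the widest spread.

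Of the 9 plexins, the receptors of semaphorins, 8 had changes below 0 in the deposited values, 9 with array medians subtracted, and 5 after quantile or cyclic loess normalization. Plxna1, the receptor of Sema6d, had log2 values of 9.29, 9.23, 9.33, 9.35 and 9.34 in AxL 1 to 5. In TPlp+AxL 1 to 5 they were 9.20, 9.08, 9.15, 9.17 and 9.29. The groups overlapped only through TPlp+AxL 5. The log2 change was -0.13 (SE 0.04, limma adjusted p = 0.229), and a dim second probe set had 0.05.

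The remaining A plexins bind class 3 and class 6 semaphorins. Plxna2 had -0.05 (95% interval -0.17 to 0.07), with -0.17, 0.19 and -0.09 in its other probe sets. Plxna3 had -0.02 (95% interval -0.11 to 0.08). Plxna4 had 0.01 (95% interval -0.18 to 0.20), and -0.11 in its other probe set.

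B plexins signal to the small GTPase RhoA, Plxnb1 and Plxnb2 as receptors of class 4 semaphorins and Plxnb3 as a receptor of Sema5a. Plxnb2, which neural progenitors and macrophages also express, had log2 values of 9.72, 9.64, 9.94, 10.07 and 9.74 in AxL 1 to 5 and 9.72, 9.51, 9.55, 9.61 and 9.70 in TPlp+AxL 1 to 5. AxL 3 and AxL 4 stood above all other mice, and the rest of the groups overlapped. The change was -0.20 (SE 0.08, limma adjusted p = 0.286) and -0.14 after cyclic loess normalization. Plxnb1, the receptor of Sema4d, had 9.82, 9.85, 9.80, 9.96 and 9.90 in AxL 1 to 5 and 9.76, 9.73, 9.71, 9.76 and 9.85 in TPlp+AxL 1 to 5. Only TPlp+AxL 5 reached the AxL range.

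The Plxnb1 change was -0.10 (SE 0.04, limma adjusted p = 0.291), with -0.18 in its other probe set and -0.03 after cyclic loess normalization. Plxnb3, which oligodendrocytes express, had -0.145 (95% interval -0.30 to 0.01) and -0.15 in its other probe set (limma adjusted p = 0.186). Its change was -0.06 without the 3 choroid plexus arrays. Beside these genes, the mean level of 9 oligodendrocyte genes was 11.12 to 11.51 in AxL and 11.01 to 11.27 in TPlp+AxL, with all 9 changes below 0 and 0 called, beside 91.1% of all genes above a level of 11 that lay below 0. The part of oligodendrocytes in the Plxnb3 values was not tested. Plxnc1, the Sema7a receptor of neurons and leukocytes, had -0.02 (95% interval -0.13 to 0.08), and its other 5 probe sets ran from -0.03 to 0.08.

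**Figure D4:**
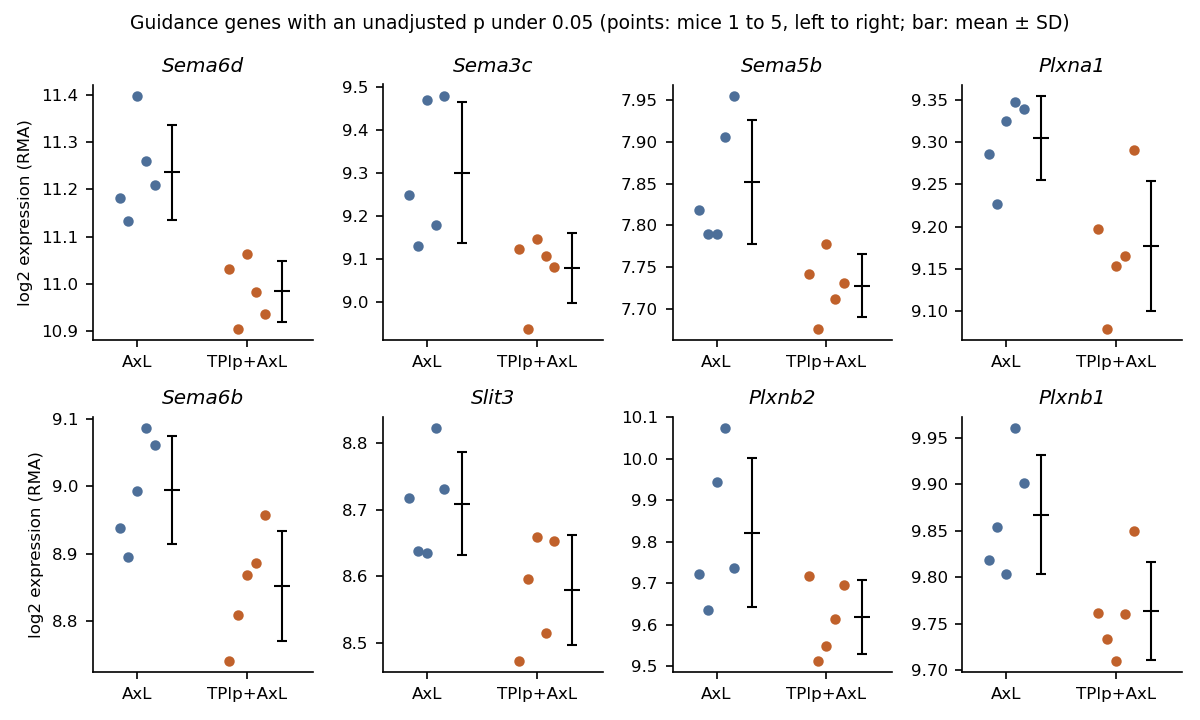
Log2 expression (vertical axes, RMA values, each panel on its own scale that does not start at 0) of the 8 guidance genes with an unadjusted limma p under 0.05, with 1 point per mouse and bars for mean ± SD, n = 5 a group. Sema6d and Sema5b are the panels in which the groups do not overlap, and 0 of the 8 passed after adjustment.

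The Slits, secreted repellents, and the Robos, their receptors, lay on opposite sides of 0 in the deposited values and after each of the 3 other scalings, but no member passed. Slit3 had log2 values of 8.72, 8.64, 8.64, 8.82 and 8.73 in AxL 1 to 5 and 8.47, 8.60, 8.66, 8.51 and 8.65 in TPlp+AxL 1 to 5. TPlp+AxL 3 and 5 lay within the AxL range. The change was -0.13 (SE 0.05, limma adjusted p = 0.282). Slit1 had -0.13 (95% interval -0.27 to 0.02), and -0.14 in its other probe set (limma adjusted p = 0.204). Slit2 had -0.14 (95% interval -0.35 to 0.08), and -0.06 and 0.02 in its other probe sets.

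Slit2 varied between mice, from 9.67 to 10.11 in AxL and from 9.43 to 9.84 in TPlp+AxL. With single arrays left out the Slit2 change ran from -0.18 to -0.07, the latter without AxL 4 or TPlp+AxL 3. It was -0.26 without the 3 choroid plexus arrays (limma adjusted p = 0.478). Robo1 had a change of 0.07 (95% interval -0.09 to 0.24), with -0.0044 and 0.05 in its other probe sets. With single arrays left out Robo1 ran from 0.03 to 0.12, with 0.03 without AxL 2 or AxL 4 and 0.04 without TPlp+AxL 1. Robo2 had 0.10 (95% interval -0.03 to 0.23, limma adjusted p = 0.444). All 5 TPlp+AxL mice lay above the AxL mean of 7.64 for Robo2. With single arrays left out the Robo2 change ran from 0.06, without AxL 5 or TPlp+AxL 1, to 0.13. It was 0.02 without the 3 choroid plexus arrays. The difference between the Slits and the Robos was not tested.

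Netrin-1 and its receptors had changes below 0 in the deposited values, but Dcc turned positive after quantile or cyclic loess normalization. Ntn1 had -0.05 (95% interval -0.17 to 0.06), and 0.0046 in a dimmer probe set. The attractive receptor Dcc had -0.03 (95% interval -0.19 to 0.13), with 0.05 and -0.00079 in its other probe sets. Unc5c, the receptor that turns netrin into a repellent, had -0.09 (95% interval -0.23 to 0.05), with 0.03 in its other probe set.

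Over all genes the change drifted down with signal level. Those with a mean log2 level up to 8 had a median change of 0.01, those from 10 to 11 had -0.10, with 85.1% below 0, and those above 11 had -0.13, with 91.1% below 0. Of the guidance genes, 34 of 36 had a mean level at or above 7.90, the median of all probe sets. By level, the medians of the guidance genes lay on both sides of those of all genes, in bins of 2 to 14 guidance genes. These differences were not tested. The 2 above 11 were Sema6d (-0.25) and Nrp1 (-0.04), on either side of the median of -0.13 for all genes there. The 9 guidance genes between 10 and 11 had a median of -0.09, beside -0.10 for all genes there. The 14 between 9 and 10 had -0.03, beside -0.07. The 8 between 8 and 9 had -0.06, beside -0.02. The 3 up to 8 had -0.05, with 2 of them below 0, beside 0.01. After cyclic loess normalization the median of the 36 genes was -0.013, beside -0.010 for all genes, and 19 of 36 lay below 0, beside 55.8%.

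**Figure D5:**
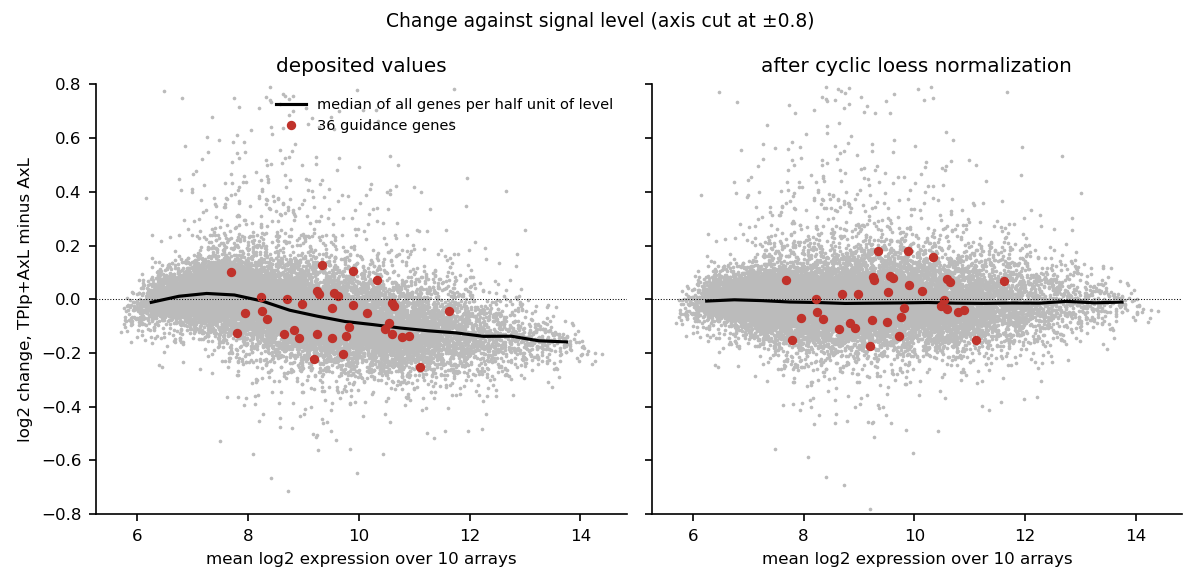
Log2 change (TPlp+AxL minus AxL, vertical axis, cut at 0.8 either way) against mean log2 expression over the 10 arrays, for all genes (grey), the 36 guidance genes (red) and the running median of all genes (black line), in the deposited values (left) and after cyclic loess normalization (right). The median of all genes falls from 0.01 at levels up to 8 to -0.10 at levels of 10 to 11 on the left and is flat on the right.

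The spread between mice was larger without T cells. The SD was larger in AxL than in TPlp+AxL in 26 of 36 guidance genes (72.2%), against 68.7% of all genes. The median SD of the guidance genes was 0.10 in AxL and 0.08 in TPlp+AxL, beside 0.10 and 0.07 over all genes. AxL 4 held the highest value of its group in 16 of 36 guidance genes (44.4%), against 33.2% of all genes. AxL 2 held the lowest in 13 (36.1%), against 33.6%. With T cells, TPlp+AxL 2 held the lowest value in 14 genes (38.9%), against 28.0% of all genes, and TPlp+AxL 4 in 0, against 19.2%.

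Lists of other guidance genes also gave no calls. Of 10 other guidance ligands, 14 other receptors and co-receptors and 31 measured signal transducers, 0 passed in limma in either direction. Of all genes 1.26% passed, so counts of 0 do not set these lists apart. Their median changes were -0.01, -0.05 and -0.11. The counts with an unadjusted limma p under 0.05 were 1 of 10, 3 of 14 and 10 of 31, all of them lower. Over genes of all signal levels, 17.9% reached that p in either direction and 12.1% were lower. The signal transducers had a mean level of 9.91 to 10.18 in AxL and 9.88 to 9.99 in TPlp+AxL. Of all genes, 78.8% had changes below 0 between levels of 9 and 10, and 85.1% between 10 and 11. Shares at that p were not computed by level. Nearest to the threshold in each list were the repulsive guidance molecule Rgma (-0.18, limma adjusted p = 0.122) and Rgmb (-0.12, 0.456), the netrin receptor Unc5a (-0.23, 0.155) and the axonal contactin Cntn2 (-0.22, 0.169), and the kinase Cdk5 (-0.25, 0.0728) and the collapsin response mediator Crmp1 (-0.28, 0.177). Cdk5, which phosphorylates collapsin response mediators downstream of Sema3a, had an AxL mean of 10.86 ± 0.11 (SD, n = 5) and a TPlp+AxL mean of 10.61 ± 0.07 (SD, n = 5). The groups did not overlap for Cdk5 or for Cntn2, and they did for the other 4 of these genes.

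Dpysl3, another collapsin response mediator, had a change of -0.12 (95% interval -0.35 to 0.12, limma adjusted p = 0.627) in its brightest probe set. Its other 2 probe sets had changes above 0, of 0.14 (95% interval 0.063 to 0.22, limma adjusted p = 0.117) and 0.07 (limma adjusted p = 0.599), and none of the 3 passed. The ephrins and Eph receptors, a separate family of contact-dependent guidance cues, had 0 of 21 measured genes called, beside 1.26% of all genes, and a median of -0.08. Efnb3 (-0.19, limma adjusted p = 0.164) and Efna2 (-0.16, 0.208) were the nearest. An unadjusted limma p under 0.05 was reached by 6 of the 21, of which 5 were lower, beside 17.9% of all genes. No difference between these lists and the 36 genes was tested.

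Neuronal and vascular markers lay below 0 beside these lists, as did most genes of several other cell lists. Below 0 were 8 of 8 mural cell genes, 7 of 8 astrocyte genes and 6 of 7 genes of oligodendrocyte precursors. The same held for 7 of 9 genes of homeostatic microglia and 8 of 8 of meninges and fibroblasts. All 12 mature neuron genes had changes below 0, with a median of -0.23 and 1 called, and their mean level was 12.06 to 12.31 in AxL and 11.83 to 12.03 in TPlp+AxL. All 11 endothelial genes were below 0, with a median of -0.17 and 1 called, at 8.23 to 8.50 and 8.13 to 8.25. Above a level of 11, where the neuronal means lie, 91.1% of all genes were below 0, with a median of -0.13. Between 8 and 9, where the endothelial means lie, 60.1% of all genes were below 0. The 10 immature neuron genes had a median of -0.0036, with 5 below 0 and 0 called. The part of these cell types in the guidance gene values was not tested.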

How the data were processed

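Each of the 10 mice gave 1 Affymetrix array of whole hippocampal RNA, per the labels. The values are log2 RMA expression as deposited by the authors, per the submitters' processing notes. The RMA software is not named in those notes. All 45037 probe sets that are not controls were tested as deposited, without filtering or renormalizing. The deposited arrays did not share 1 distribution. Their median over all probe sets was 7.8754 to 7.8997 in AxL and 7.9026 to 7.9198 in TPlp+AxL. This offset goes with the group, so changes of small size depend on the scaling. Its cause was not tested. Among them 34945 had 1 symbol, updated by Entrez identifier against RefSeq (34741 matched, table assembly GRCm38.p6). Those with several symbols (932) or none (9160) were not named. RMA gives no detection calls. Levels served to choose a gene's brightest probe set, to bin genes by signal and to compare marker lists between arrays. They do not rank genes by abundance or show that a gene was detected.

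Groups were compared in limma 3.58.1 (R 4.3.3, moderated variance, no trend) at an adjusted p of 0.05 (Benjamini-Hochberg, every tested probe set), after the code was tested on simulated data. Exact permutation tests were two-sided. With 5 arrays a group, their number limits the precision.

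The text names all 36 genes, each further probe set of theirs with another sign, and the 2 genes of smallest p in each other guidance list, where none passed. Cell type lists are given as counts, medians and ranges. The members, lists and tests were chosen with earlier results of these data known. Mouse numbers recur in both groups, but the deviations of same-numbered mice correlated from -0.224 to 0.363, so the numbers were not taken as pairs.

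Alternatives were another variance model, no dim probe sets, median, quantile or cyclic loess scaling, array weights, the replicate number as a block, 1 probe set per gene, no shared-sequence probe sets, the mean of a gene's probe sets, a threshold of 0.10, and each array left out. Leaving out the 3 choroid plexus arrays was chosen after seeing the data.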

Additional observations from a re-analysis of the deposited data

Results flagged for a closer look

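Within the 72 groups of 5 values (36 genes in each of 2 groups), 3 held a mouse set apart from the others by a gap over 0.71 of the group's range (4.17%). Chance alone would mark about 1 group in 20. Sema4c was 8.59 in TPlp+AxL 1, below the 8.71 to 8.74 of the other 4 mice. Robo2 was 7.91 in TPlp+AxL 1, above the 7.67 to 7.71 of the others. Sema4f was 9.73 in TPlp+AxL 5, above the 9.51 to 9.56 of the others.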

How the results depend on the processing

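The count of guidance genes called higher was 0 under every alternative run. The count called lower, and that of guidance probe sets called, was 0 in the main analysis and 1, Sema6d, with array medians subtracted, with array weights and at a threshold of 0.10. The count called lower was also 1 with the adjustment over 1 probe set per gene, and both counts ranged from 0 to 1 with single arrays left out (1 without AxL 2). The trended and robust variance gave Sema6d a limma adjusted p of 0.121, and the mean of its 4 probe sets had a change of -0.02. The median change of the 36 genes was -0.05, ran from -0.08 to -0.05 with single arrays left out, and was -0.013 after cyclic loess normalization. With the replicate block, Sema6d kept a change of -0.25 (limma adjusted p = 0.0553), while 241 of all probe sets passed in place of 376. It changed no call of a guidance gene, and not every array correlated best with its own number.

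Signs of changes near 0 turned, and none of these genes was called. With array medians subtracted they were Sema4b (-0.0071), Sema4c (-0.028), Sema4f (-0.0052), Sema6a (-0.021) and Plxna4 (-0.015). After repeated quantile normalization they were Sema6a (-0.013), Sema6c (0.016), Plxna2 (0.023), Plxna3 (0.0047), Plxnc1 (0.046), Nrp1 (0.061), Nrp2 (0.072) and Dcc (0.065). After cyclic loess normalization they were Sema6c (0.028), Plxna2 (0.031), Plxna3 (0.019), Plxnc1 (0.052), Nrp1 (0.067), Nrp2 (0.075) and Dcc (0.064). By the mean of all probe sets they were Sema4d (-0.027), Sema4f (-0.039), Sema5a (-0.0094), Sema6a (-0.012), Plxna4 (-0.048), Plxnc1 (0.016) and Dcc (0.0067). Without the 3 choroid plexus arrays the turned sign was that of Dcc (0.0077). With single arrays left out, Sema4c ran from -0.027 to 0.028, Sema6a from -0.012 to 0.026, Nrp2 from -0.046 to 0.022, Plxna4 from -0.042 to 0.066, Dcc from -0.076 to 0.0084, Plxna3 from -0.045 to 0.0012, Plxnc1 from -0.051 to 0.00095, Plxnd1 from -0.11 to 0.023, Sema4b from -0.0044 to 0.048, Sema5a from -0.0065 to 0.24 and Sema4f from -0.018 to 0.050. The causes were not tested.

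The widest 95% interval of a guidance gene, that of Sema5a, ran from -0.27 to 0.48. Of the 89 probe sets, 59 lay at or above the median level of all probe sets, and how far the other probe sets stood above background is not known from RMA values.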
